A study of Mus musculus with 8 samples.

Results

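Glypicans and syndecans are the 2 families of heparan sulfate proteoglycans that sit on the cell surface. All 10 mouse members, Gpc1 to Gpc6 and Sdc1 to Sdc4, were taken by gene symbol from the 55487 genes of the deposited count table. The members were chosen with earlier results of these libraries known, in which Gpc4 stood among the genes with the smallest p between the genotypes. Every wild-type against ΔAgo2 value of a member is therefore given as a description, without a test.

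Both families carry heparan sulfate, a long sulfated sugar chain that is built on the core protein in the Golgi. Glypicans are held in the outer leaflet of the membrane by a lipid anchor, whereas syndecans span the membrane and have a short cytoplasmic tail. Through their chains they bind growth factors such as FGF, VEGF and HGF, hold them near their receptors, and attach cells to the matrix. In carcinomas, the levels of single members, above all Gpc1 and Sdc1, have been followed as surface markers of tumor cells.

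The libraries were made from cultured Lewis lung carcinoma (LLC) cells, a line raised from a mouse lung tumor. There were 4 wild-type libraries and 4 libraries of ΔAgo2 cells, in which the gene for Argonaute 2, the slicing protein of RNA interference, was targeted with lentiviral CRISPR-Cas9 and puromycin selection. Neither group carried any other labelled allele or treatment. The methods describe sorting of single cells to raise knockout clones and do not say which clone was sequenced, so a difference between genotypes and a difference between clones cannot be told apart. The titles number the 4 libraries of each group as biological replicates without saying whether cultures or clones were separate, so the errors below measure the spread between these libraries, which may be technical.

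Each wild-type library held 40740643 to 68530912 counts and each ΔAgo2 library 39628101 to 57595675. Wild-type replicate 4 stood apart from the others, with a median Spearman correlation of 0.864 with its own group, against 0.948 to 0.961 for the other wild-type libraries and 0.985 to 0.986 for ΔAgo2 libraries. Fold changes that move by over 1.5 times without it are followed by the value without it. The messenger RNA of Ago2 was measured at 3842 to 34965 counts in wild-type and 12319 to 23871 counts in ΔAgo2 libraries, with a log2 fold change of 0.21 ± 0.40 (SE), -0.05 without wild-type replicate 4, and an adjusted p of 0.908 (edgeR's quasi-likelihood test, Benjamini-Hochberg). RNA level does not check the labels for a gene disrupted by small edits. The authors measured Ago2 protein in wild-type and ΔAgo2 LLC cells by western blot. They name the clone engrafted in mice, not the one sequenced. Of the 6 epithelial markers, Krt8 and Krt18 exceeded 1 TPM in every library, and Krt19 in all but wild-type replicate 3 (0.27 TPM). Cdh1 had 1 to 9 counts per library. Epcam and Cldn4 were at or under 3 counts, as were all 4 lung epithelial markers. All 6 mesenchymal markers exceeded 1 TPM in every library. Of the 6 fibroblast markers, 1 did so, Pdgfra. Acta2 was at 1.80, 4.14, 137 and 75.2 TPM in wild-type and 0.08 to 0.79 TPM in ΔAgo2 libraries. Its groups did not overlap in CPM, where 2.98% of tested genes were lower without overlap. It was not called (adjusted p = 0.107, edgeR's quasi-likelihood test), and the groups overlapped for every other marker of that list. Of the 6 leukocyte markers, 2 did so, Cd68 at 12.8 to 94.6 TPM and Lyz2 at 1.19 to 6.30 TPM, whereas 4, among them Ptprc, Adgre1 and Cd3e, were at or under 3 counts.

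Gpc4 is the member on which the family was chosen. Its gene lies on the minus strand of chromosome X (chrX:52053021-52165252, GRCm38, ENSMUSG00000031119.4), and its transcript is 2651 bases long. The coding part of its first exon (chrX:52164616-52164775, minus strand) is shown because no read was counted on this gene in any ΔAgo2 library. Capitals mark the start codon.

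Gpc4 coding start: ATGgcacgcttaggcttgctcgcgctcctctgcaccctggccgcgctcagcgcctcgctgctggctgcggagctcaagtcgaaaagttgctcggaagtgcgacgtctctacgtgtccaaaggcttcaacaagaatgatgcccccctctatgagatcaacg

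The transcripts of the members were searched for runs of bases shared with transcripts of any other gene, on either strand, since reads from such runs can be miscounted. The search finds every run of at least 49 bases and can miss shorter ones. The longest run found for Gpc4 was 29 bases, well below the read length of 100 bases. The longest runs found were 25 bases for Gpc6, 31 for Gpc3, 48 for Sdc4, 79 for Sdc1 and 95 for Sdc2. A run of at least 100 bases was shared by 4 members. These were Gpc1 with Ankmy1 (977 bases), Gpc2 with Gm43720 (1504 bases), Gpc5 with Gm20713 (110 bases) and Sdc3 with Gm26716 (222 bases). Ankmy1 overlaps Gpc1 on the opposite strand and itself had 9 to 26 counts per library, against 8941 to 29686 for Gpc1. No pair of members shared a run of read length.

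The promoters of 7 members were matched in the RefSeq promoter table of GRCm38.p6, which gives 250 bases before and 50 after each start. Promoters of Gpc1, Gpc6 and Sdc2 were not in the table. Pairs of C followed by G (CpG) are sites at which DNA can be methylated, and their number does not show whether it is. They numbered 44 in Sdc3, 30 in Gpc3, 26 in Gpc2, 22 each in Gpc4 and Sdc4, 17 in Gpc5 and 14 in Sdc1. The median over the 32851 promoters of the same length was 7. The 250 bases before the start are printed for Gpc3, the neighbour of Gpc4 on chromosome X that was silent, and for Sdc4, the member with the highest level. In the Gpc4 window these bases lie in the first exon of the GENCODE transcript and are not printed. Those of the Gpc2 and Sdc1 windows also overlap an exon. Capitals mark each CpG.

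Gpc3, chrX:52613975-52614224, minus strand: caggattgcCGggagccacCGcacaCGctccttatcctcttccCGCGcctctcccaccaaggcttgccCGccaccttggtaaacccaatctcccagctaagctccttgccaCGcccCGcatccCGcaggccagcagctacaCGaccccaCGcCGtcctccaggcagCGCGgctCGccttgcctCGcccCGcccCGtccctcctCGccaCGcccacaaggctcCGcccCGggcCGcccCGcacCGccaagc
Sdc4, chr2:164443189-164443438, minus strand: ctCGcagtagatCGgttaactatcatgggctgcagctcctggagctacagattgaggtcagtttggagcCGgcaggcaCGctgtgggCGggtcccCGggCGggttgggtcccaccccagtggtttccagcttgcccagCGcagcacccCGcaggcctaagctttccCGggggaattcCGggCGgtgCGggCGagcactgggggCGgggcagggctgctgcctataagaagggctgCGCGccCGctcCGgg

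Both stretches are dense in CpG, with 25 in the silent Gpc3 and 19 in Sdc4, so the density did not separate the silent from the expressed member. The GC box GGGCGG, counted on both strands, occurred 4 times in the Gpc3 window, 4 times in the Sdc4 window and once in the Gpc4 window, and 35.7% of all promoters held at least 1. The TATA box TATAAA occurred in none of the 3 windows and in 13.6% of all promoters. The sequence CCAAT occurred 1 time in Gpc3, in neither of the others, and in 37.4% of all promoters. These matches describe letters in a window and are not evidence of binding.

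The 10 members fell into a group of 4 with high levels, a pair with low levels, and a group of 4 near or at 0 counts. TPM, the authors' unit, scales counts to gene length and library total, so that members can be compared within a library. Sdc4, Gpc1, Sdc1 and Sdc2 ranged from 52.6 to 396 TPM, Gpc6 and Gpc4 reached at most 9.12 and 2.90 TPM, and Gpc2, Gpc3, Gpc5 and Sdc3 never exceeded 0.09 TPM. In the plot of TPM by library, Gpc4 lies above 1 TPM in every wild-type library and at 0 in every ΔAgo2 library, while Gpc2, Gpc3 and Gpc5 are at or near 0 in both groups.

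**Figure D1:**
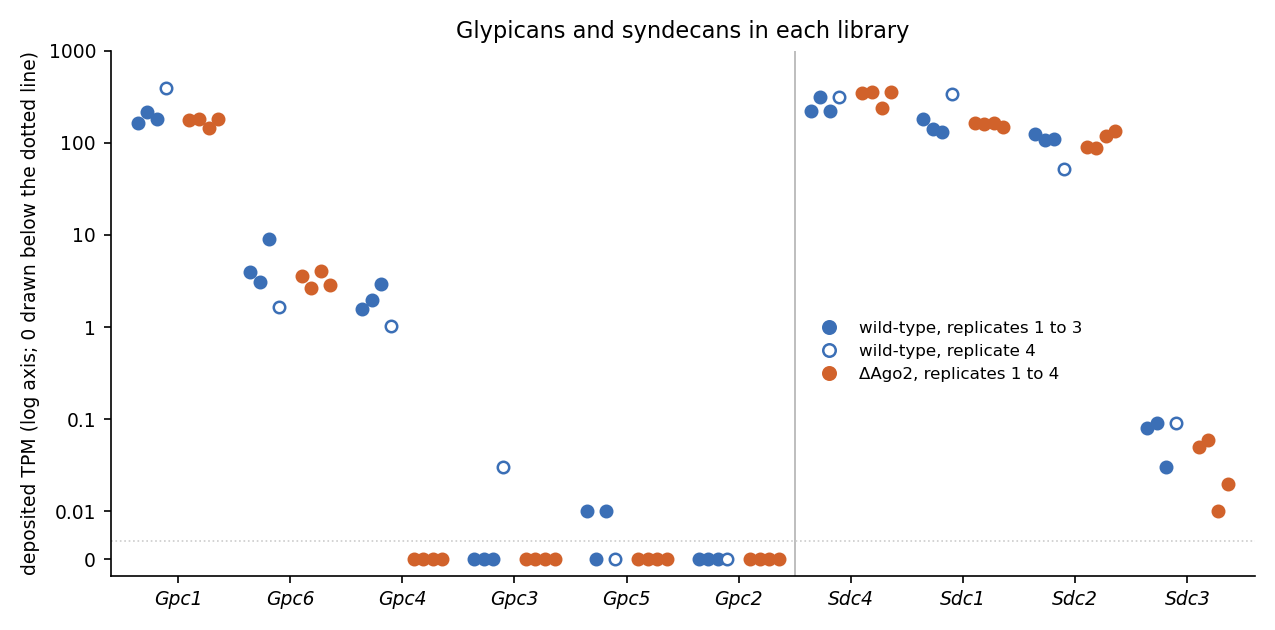
Deposited TPM of the 10 members in each of the 8 libraries, on a log axis with values of 0 drawn below the dotted line. Filled blue points are wild-type replicates 1 to 3, open blue points wild-type replicate 4 and orange points ΔAgo2 libraries. Gpc4 lies between 1.04 and 2.90 TPM in wild-type and at 0 in ΔAgo2 libraries, and wild-type replicate 4 is the highest wild-type point for Gpc1 and Sdc1 and the lowest for Gpc6, Gpc4 and Sdc2.

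After the filter on low counts, 6 of the 10 members were tested with all other genes. Gpc2, Gpc3, Gpc5 and Sdc3 did not pass it. Of the 6, 1 (Gpc4) had an adjusted p under 0.05, where 0.295% of the 14228 tested genes did (42 genes, of which 11 were higher in ΔAgo2, 0.0773%, and 31 lower, 0.218%). Since Gpc4 was picked on this contrast, nothing is read from that count. The groups did not overlap in CPM for 2 members, Gpc1 and Gpc4, both lower in ΔAgo2, where 6.07% of tested genes did not overlap and 2.98% were lower. For Gpc1 the gap was narrow.

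Among the glypicans, Gpc4, which is known to bind FGFs and Wnts, was lower in ΔAgo2 cells. Wild-type libraries held 66, 95, 151 and 40 reads of Gpc4, which is 1.56, 1.99, 2.90 and 1.04 TPM, and all 4 ΔAgo2 libraries held 0. No ΔAgo2 library came near the lowest wild-type library, and wild-type replicate 3 was the highest. Over the group, 352 wild-type reads stood against 0 of 189476675 counts in ΔAgo2. Taking 3 counts per library as the limit that a count of 0 allows, at most 0.0735 CPM in a ΔAgo2 library, Gpc4 at 1.54 ± 0.47 CPM (SD, n = 4) in wild-type was at least 21.0-fold lower in ΔAgo2. From the lowest wild-type library alone, the bound was 16.9-fold. These limits cover counting error only. In bulk cells, fewer expressing cells and less RNA per cell cannot be told apart.

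Even in wild-type cells Gpc4 was a minor transcript, at or below percentile 24.9 of the tested genes by TPM in every library. The fitted log2 fold change is set by the prior count where a group is at 0, and is not given.

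Gpc1, a glypican that promotes signaling by FGF and VEGF, made up 93.8% to 99.3% of the summed glypican TPM in every library. Its counts were 13572, 19877, 18286 and 29686 in wild-type, and 15022, 10988, 8941 and 13932 in ΔAgo2 libraries. In TPM these were 165, 214, 180 and 396 against 179, 184, 144 and 180, so that the groups overlapped in TPM and 1 wild-type library lay far above the rest. After TMM scaling the groups separated by a small margin, with wild-type libraries at 272 to 922 CPM and ΔAgo2 libraries at 219 to 264 CPM. The log2 fold change was -0.82 ± 0.42 (SE) with all libraries and -0.15 ± 0.14 without wild-type replicate 4. Most of the fitted decrease of Gpc1 was thus in that library.

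Gpc6, the glypican closest in sequence to Gpc4 and, like it, an extracellular partner of growth factors, was low in both groups. Wild-type libraries held 407, 358, 1152 and 153 reads (3.98, 3.09, 9.12 and 1.64 TPM) and ΔAgo2 libraries 374, 196, 314 and 278 reads (3.57, 2.63, 4.05 and 2.89 TPM). All ΔAgo2 values lay inside the wild-type range, and wild-type replicate 3 was more than 2 times as high as any other library. The log2 fold change was -0.57 ± 0.45, -0.77 without wild-type replicate 4 and -0.03 without wild-type replicate 3.

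The other glypicans had no counted reads or nearly none. Gpc2, a glypican of the developing nervous system, had 0 reads in all 8 libraries. Gm43720, which lies over most of Gpc2 on the same strand, also had 0. How reads lying in both genes were counted is not given, so a count of 0 need not mean that Gpc2 was silent. Gpc3, which is known as an antigen of liver cancer and lies beside Gpc4, had 1 read in wild-type replicate 4 and 0 elsewhere. Gpc5, whose gene lies in tandem with Gpc6 on chromosome 14, had 1 read each in wild-type replicates 1 and 3. No difference between genotypes was detectable for these at this depth.

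Among the syndecans, Sdc4, which is found at focal adhesions and signals through protein kinase C, had the highest level. It stood at 224, 311, 224 and 316 TPM in wild-type and 350, 358, 239 and 361 TPM in ΔAgo2 libraries, which was 42.5% to 58.9% of the summed syndecan TPM. The mean was 269 ± 51.7 TPM in wild-type and 327 ± 59.0 TPM in ΔAgo2 (SD, n = 4 each). In TPM, 3 of the ΔAgo2 libraries lay above every wild-type library and replicate 3 lay among them. On the CPM scale every ΔAgo2 library lay inside the wild-type range (179.7 to 260.1 against 166.8 to 363.2). The log2 fold change on the count scale was 0.02 ± 0.31, and 0.34 ± 0.17 without wild-type replicate 4.

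Sdc1, the syndecan of epithelia and plasma cells, was at 179, 140, 133 and 338 TPM in wild-type and 166, 161, 164 and 150 TPM in ΔAgo2 libraries. The ΔAgo2 libraries lay close together and inside the wild-type range, and wild-type replicate 4 was the highest library. The log2 fold change was -0.67 ± 0.45 with all libraries and 0.03 ± 0.18 without that library.

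Sdc2, the syndecan of mesenchymal cells, was at 124, 107, 109 and 52.6 TPM in wild-type and 91.0, 88.6, 117 and 135 TPM in ΔAgo2 libraries. Here wild-type replicate 4 was the lowest library. The log2 fold change was -0.02 ± 0.28, and -0.12 ± 0.22 without wild-type replicate 4. Sdc3, the syndecan of neurons, had 8, 10, 3 and 8 reads in wild-type and 5, 4, 1 and 2 reads in ΔAgo2 libraries, too few to be tested.

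The order of the members by mean TPM was the same in both groups, from Sdc4 through Gpc1, Sdc1, Sdc2 and Gpc6 to Gpc4. Neighbours at the top of this order were not separated in every library. Sdc4 exceeded Gpc1 in 7 of 8 libraries and Sdc1 in 7 of 8, and Gpc1 exceeded Sdc1 in 6 of 8. Every other pair kept its order in 8 of 8. Against all tested genes, Sdc4 stood between percentiles 95.7 and 97.4 by TPM, Gpc1 between 92.3 and 97.4, Sdc1 between 91.4 and 96.9, Sdc2 between 80.6 and 92.1 and Gpc6 between 22.5 and 39.3. LLC cells of both genotypes thus held the messages of 3 syndecans and 1 glypican at high levels.

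The position of wild-type replicate 4 differed between members with the GC content of their exons. Gpc1 (59.0% GC) and Sdc1 (55.2% GC) were higher in this library than the mean of the other 3 wild-type libraries, by 1.74 and 1.82 on the log2 CPM scale, and Sdc4 (49.3% GC) by 0.98. Gpc4 (50.8% GC) was lower by 0.35, Sdc2 (41.6% GC) by 0.47 and Gpc6 (45.7% GC) by 0.91, so that the pair richest in GC rose most in that library and the pair poorest in GC was lower. Other genes of the lists described next showed the same pattern. Of 21 above 55% GC, 17 were higher in wild-type replicate 4, with a median difference of 1.14, and of 16 below 45% GC, 1 was higher, with a median difference of -0.97. Each library's deviation from the mean of the others in its group was compared with GC content over 14226 tested genes. The Spearman correlation was 0.722 for this library and between -0.509 and 0.336 for the others. For wild-type replicates 1 to 3 that mean includes replicate 4, so their negative values are not independent of it.

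**Figure D2:**
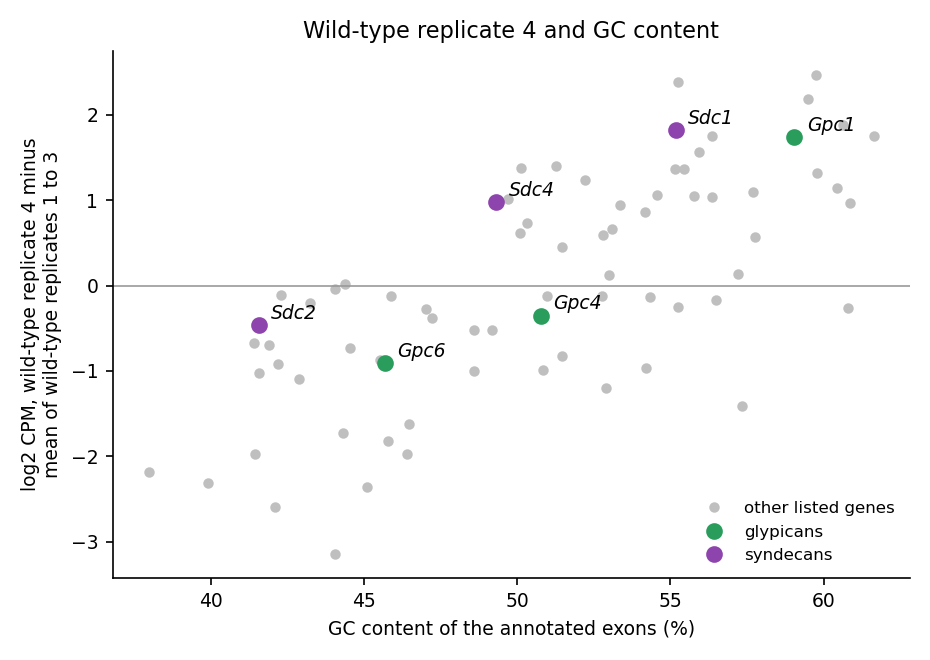
Difference in log2 CPM between wild-type replicate 4 and the mean of wild-type replicates 1 to 3 (vertical axis) against the GC content of the annotated exons in percent (horizontal axis), for the 6 tested members (green, glypicans; purple, syndecans) and the other listed genes (grey). Gpc1 and Sdc1 lie at 1.74 and 1.82, and Gpc6 at 45.7% GC lies at -0.91.

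When each library was corrected for GC content, the log2 fold change was -0.26 ± 0.17 for Gpc1, -0.15 ± 0.21 for Sdc1, 0.01 ± 0.26 for Sdc4, -0.70 ± 0.38 for Gpc6 and -0.47 ± 0.32 for Sdc2. The values for Gpc1 and Sdc1 moved towards 0 and that for Sdc2 moved away from it. The plot of fold changes by setting shows these shifts beside the standard errors. No direction between genotypes held beyond 1 SE in all 3 settings for Sdc1, Sdc2 or Sdc4. Gpc1 and Gpc6 were lower in ΔAgo2 by more than 1 SE in each, although the Gpc6 value was -0.03 without wild-type replicate 3.

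**Figure D3:**
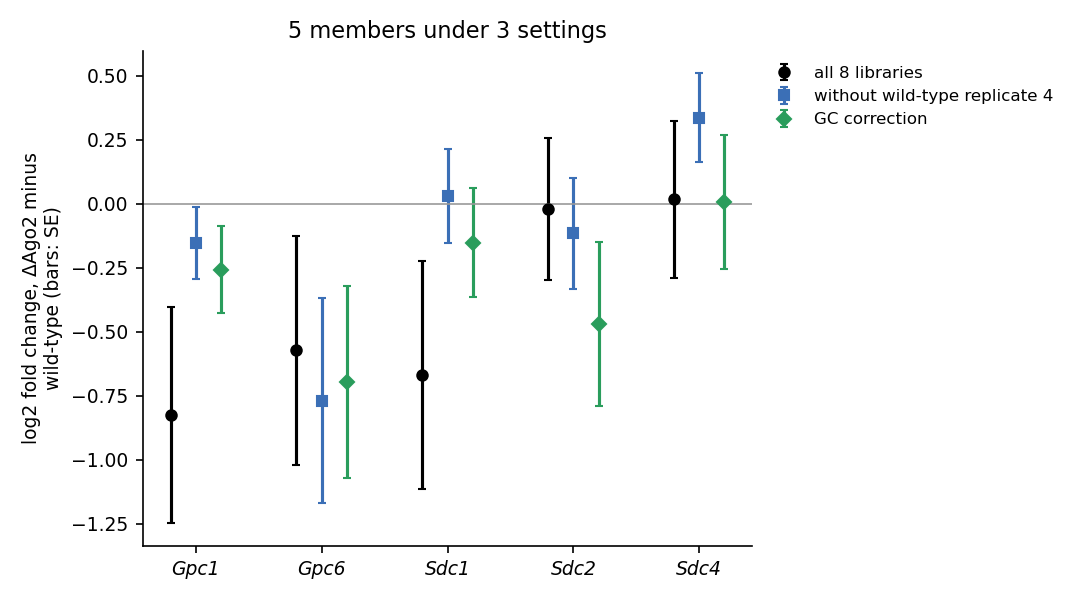
Log2 fold change, ΔAgo2 minus wild-type, of the 5 members with reads in both groups, with all 8 libraries (black circles), without wild-type replicate 4 (blue squares) and with the GC correction (green diamonds). Bars are standard errors, and Gpc1 moves from -0.82 to -0.15 without wild-type replicate 4.

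The enzymes that build and trim the chains were taken from fixed lists of 57 genes, of which 42 were tested. None was called with edgeR's quasi-likelihood test and Benjamini-Hochberg adjustment. DESeq2, which called many more of all genes than edgeR did (closing section), called 4 (Hpse, Hpse2, Hs3st3a1 and Hs3st3b1). The share of all genes that DESeq2 called is not given, so nothing is read from its count of 4. Of these 4, Hs3st3a1 and Hs3st3b1 are not among the 42. Without adjustment, 3 had a p under 0.05 and were higher in ΔAgo2 and 2 were lower, against 7.34% of all tested genes in either direction. The median log2 fold change was -0.03 over the 42 genes and -0.11 over all tested genes, and without wild-type replicate 4 the medians were 0.12 and -0.03. The lists are described in the order in which a chain is made.

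The chains are started and lengthened by 12 enzymes, of which 11 were tested and none called (adjusted p 0.709 to 0.993, edgeR's quasi-likelihood test, Benjamini-Hochberg). Ext2, a subunit of the polymerase, stood at 63.5 to 103 TPM, Extl3, which adds the first glucosamine, at 43.5 to 70.0 TPM, and B3gat3, which completes the linker, at 34.8 to 109 TPM. The largest differences in this list were those of Extl1, at -1.14 ± 0.92, and B3gat3, at -0.85 ± 0.43, on the log2 scale. Each rested on 1 library, since Extl1 was at -0.075 without wild-type replicate 3 and B3gat3 at -0.18 without wild-type replicate 4. Both groups overlapped for every gene of this list.

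Of the 16 enzymes that sulfate and epimerize the chain, 7 were tested and 6 were at or under 3 counts in every library. Hs6st1 (58.6 to 138 TPM), Ndst1 (38.5 to 92.2 TPM) and Hs2st1 (22.9 to 78.9 TPM) had the highest levels, so that 6-O-, N- and 2-O-sulfation each had 1 abundant enzyme. Ndst3, an N-deacetylase and N-sulfotransferase, was at 3.85, 4.83, 1.58 and 0.59 TPM in wild-type and 10.2, 8.30, 8.71 and 6.97 TPM in ΔAgo2 libraries. On the CPM scale the groups did not overlap (2.64 to 12.3 against 19.5 to 26.7), where 3.09% of all tested genes were higher without overlap. The difference, 1.57 ± 0.48 on the log2 scale, missed the corrected threshold (adjusted p = 0.381, edgeR's quasi-likelihood test, range over the alternatives 0.0516 to 0.784). Hs3st5, the other with a large difference, was at 0.42 ± 0.66, and at 0.18 without wild-type replicate 4.

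The 3-O-sulfotransferases Hs3st3a1 and Hs3st3b1 were below the filter on low counts and are named after their values were seen. Hs3st3a1 had 20, 1, 42 and 8 reads in wild-type and 1, 0, 0 and 0 in ΔAgo2 libraries. Hs3st3b1 had 30, 4, 122 and 12 reads in wild-type and 0, 0, 1 and 0 in ΔAgo2 libraries. The groups did not overlap for Hs3st3b1 and overlapped for Hs3st3a1 because of wild-type replicate 2. Like Gpc4, both were highest in wild-type replicate 3.

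The precursors are supplied by 5 genes, all tested and none called (adjusted p 0.739 to 0.996, edgeR's quasi-likelihood test). Papss1, which makes the sulfate donor, stood at 107 to 331 TPM, and Ugdh, which makes UDP-glucuronic acid, at 20.3 to 93.8 TPM. Slc35b2, which carries the sulfate donor into the Golgi, had a log2 fold change of -0.95 ± 0.57, and 0.14 without wild-type replicate 4, which alone held 205 TPM against 47.7 to 84.4 TPM in the other 7 libraries. For Ugdh the value was 0.41 ± 0.30, and 0.215 without wild-type replicate 4.

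Of the 12 genes that edit and break down the chains, 11 were tested, none was called, and without adjustment 2 were higher and 2 lower at p under 0.05, where 7.34% of all tested genes passed in either direction. Heparanase, Hpse, which cuts the chains, had 491, 598, 452 and 185 reads in wild-type and 827, 595, 605 and 924 reads in ΔAgo2 libraries, and on the CPM scale the groups did not overlap (5.74 to 9.98 against 13.5 to 17.5). Its log2 fold change was 0.95 ± 0.29 (adjusted p = 0.383, edgeR's quasi-likelihood test), and it is named after its values were seen. Hpse2, its homologue without cutting activity, had 5, 2, 2 and 3 reads in wild-type and 23, 21, 9 and 26 in ΔAgo2 libraries, without overlap. Its log2 fold change was 2.70 ± 0.58 (adjusted p = 0.122, edgeR's quasi-likelihood test, range over the alternatives 0.00536 to 0.356). Among the lysosomal enzymes, Naglu was at 60.7 to 159 TPM and Gusb at 35.2 to 74.2 TPM, and Hgsnat, which acetylates the chain end, had a log2 fold change of -1.01 ± 0.34 with an adjusted p of 0.493 (edgeR's quasi-likelihood test).

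The list for processing and release of the core proteins held 12 genes, of which 8 were tested and none called (adjusted p 0.70 to 0.981, edgeR's quasi-likelihood test). The syndecan sheddases Mmp14 (110 to 268 TPM), Adam10 (13.2 to 204 TPM) and Adam17 (at most 85.5 TPM) had the highest levels. Mmp9 and Adam10 had the largest differences, 1.52 ± 0.72 and 0.79 ± 0.49 on the log2 scale, and without wild-type replicate 4 these were 2.57 and 0.46. Both groups overlapped for each gene of the list. Notum, also in this list, stood at 1.14 to 9.06 TPM.

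Of the 30 other proteoglycans, partners and ligands, 26 were tested and none was called with edgeR's quasi-likelihood test. DESeq2, which called many more of all genes, called 3 (Agrn, Tgfbr3 and Tiam1), and Tiam1 is not among the 26. Its share of all genes is not given, so nothing is read from its count of 3. Without adjustment, 1 gene was higher and 2 were lower at p under 0.05, against 7.34% of all tested genes. Over the 26 genes the log2 fold change had a median of -0.09, and -0.23 without wild-type replicate 4, where the whole set of tested genes had -0.11 and -0.03. By mean TPM over the 8 libraries, 3 other heparan sulfate proteoglycans stood above every member. Col18a1 (329 to 1151 TPM) and Hspg2 (229 to 420 TPM), which encode secreted matrix proteoglycans, and Cd44 (112 to 464 TPM), whose variant forms carry the chains, were these 3.

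The co-receptor Tgfbr3, or betaglycan, had 12088, 14930, 13294 and 4887 reads in wild-type and 25380, 16796, 14624 and 17869 reads in ΔAgo2 libraries. On the CPM scale the groups did not overlap (152 to 246 against 338 to 413). The difference, 0.90 ± 0.25 on the log2 scale and 0.80 without wild-type replicate 4, missed the corrected threshold (adjusted p = 0.289, edgeR's quasi-likelihood test, range over the alternatives 0.0252 to 0.769). Agrn, which encodes agrin, had 9920, 4234, 18815 and 4309 reads in wild-type and 3171, 2161, 2888 and 3387 reads in ΔAgo2 libraries. The groups overlapped in CPM (60.0 to 280 against 51.3 to 70.8), and the log2 fold change was -1.50 ± 0.42 with an adjusted p of 0.301 (edgeR's quasi-likelihood test, range 0.0198 to 0.716). Tiam1, a Rac activator that binds syndecans, had 0 reads in wild-type and 28, 13, 3 and 5 in ΔAgo2 libraries, was not tested because of its low counts, and is named after its values were seen.

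Of the 9 cytoplasmic partners of syndecans, 8 were tested and none called (adjusted p 0.740 to 0.981, edgeR's quasi-likelihood test). Ezr (206 to 441 TPM), Actn1 (207 to 387 TPM) and Pdcd6ip (72.9 to 176 TPM), which take part in the links of the tails to actin and to vesicle sorting, had the highest levels. The largest differences were those of Sdcbp2, at -0.70 ± 0.65, and Gipc1, at -0.70 ± 0.45. Each rested on 1 library, since Sdcbp2 was at -0.007 without wild-type replicate 3 and Gipc1 at 0.03 without wild-type replicate 4. Of 14 growth factors and FGF receptors, 12 were tested and none called (adjusted p 0.746 to 0.993, edgeR's quasi-likelihood test). Fgfr1 (105 to 210 TPM) was the FGF receptor with the highest level, and Vegfa (53.5 to 195 TPM) and Fgf7 (6.13 to 60.6 TPM) were the ligands with the highest levels. Fgfr3 and Fgf2 had the largest differences, -0.86 ± 0.82 and -0.65 ± 0.49. Fgfr3 was at -0.275 without wild-type replicate 4, and Fgf2 at -0.14 without wild-type replicate 1.

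**Figure D4:**
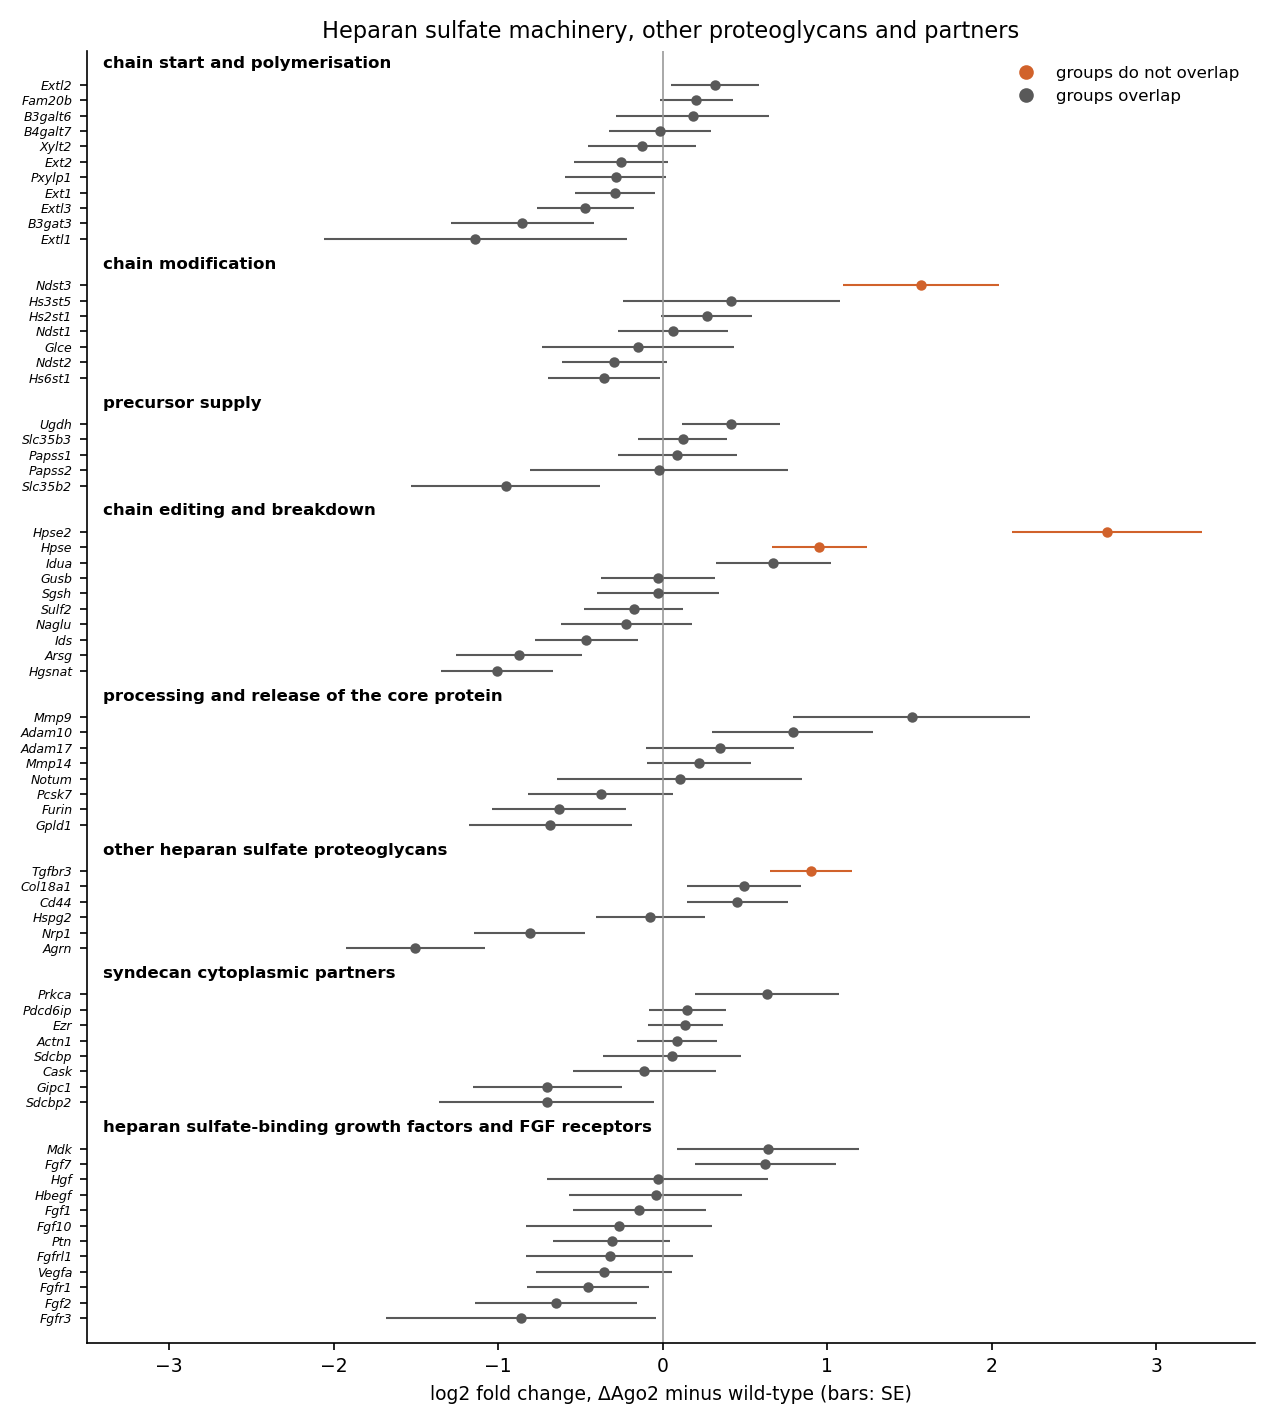
Log2 fold change, ΔAgo2 minus wild-type, of the tested genes reported here from the 8 lists, with bars for the standard error. Orange points mark the 4 genes whose groups do not overlap in CPM, Ndst3, Hpse2, Hpse and Tgfbr3, all higher in ΔAgo2. They are 3 of 42 and 1 of 26 tested genes. Of all tested genes, 6.07% did not overlap and 3.09% were higher without overlap, and a difference from these shares was not tested. None of the genes drawn passed the correction.

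The surroundings of Gpc4 held little expression in either genotype. Of the 10 other genes within 500 kb, none exceeded 3 counts in any library. The nearest protein-coding genes are 1700080O16Rik, at 80.2 kb, with 0 reads, and Gpc3, at 107 kb. The nearest well expressed genes, Phf6 and Hprt, named after their values were seen, have their midpoints 769 and 840 kb from the Gpc4 start and stood at 35.5 and 67.2 CPM in wild-type against 38.3 and 80.1 CPM in ΔAgo2. Reads were thus absent in ΔAgo2 cells from Gpc4 and not from Phf6 and Hprt, which both lie on the Gpc3 side of it. On the other side no gene drawn within 1 Mb exceeded 3 counts in any library. How far the absence of reads extends on that side cannot be seen.

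**Figure D5:**
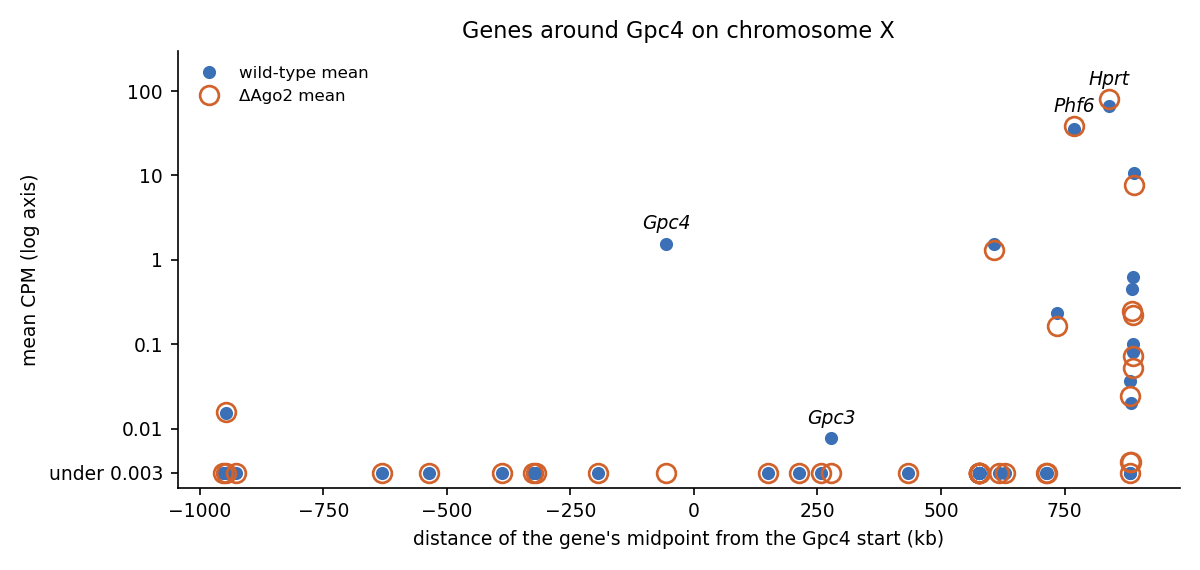
Mean CPM (log axis) of the 40 genes within 1 Mb of the Gpc4 start against the distance of their midpoints in kb, in wild-type (filled blue) and ΔAgo2 libraries (open orange). Gpc4 is at 1.54 CPM in wild-type and under the axis limit in ΔAgo2, while Phf6 and Hprt lie close together in both groups.

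Gpc5 and Gpc6 lie 400 kb apart on chromosome 14. Dct, the next protein-coding gene after Gpc6 at 36.2 kb, had 0 reads, as had Ccdc160, which lies 177 kb from Gpc3. Before Gpc5 the next protein-coding gene is Tpm3-rs7, at 1775 kb, with a log2 fold change of 0.07 ± 0.38, and 0.215 without wild-type replicate 4. Within 500 kb of any member lay 283 genes, of which 81 were tested and 1 was called, against 0.295% of all tested genes. This was Sned1, which encodes a matrix protein and lies 375 kb from Gpc1, with 342, 528, 362 and 466 reads in wild-type and 51, 24, 30 and 39 reads in ΔAgo2 libraries. Its log2 fold change was -3.57 ± 0.43 (adjusted p = 0.0120, edgeR's quasi-likelihood test), and lower in 4 of 4 ΔAgo2 libraries. The adjusted p rose to 0.0713 to 0.0950 when any 1 of the ΔAgo2 replicates 1, 2, 3 or 4 was left out.

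Gpc5 and Gpc3 lie beside microRNA clusters, whose products Argonaute proteins load. Such a neighbour is not particular to them. Mir25, Mir93 and Mir106b lie about 108 kb from Gpc2, and Mir149 lies within the abundant Gpc1. Mature sequences from the clusters beside Gpc5 and Gpc3 are shown as RefSeq gives them (GRCm38.p6). They are 2 products of each cluster that share the seed AAAGUGC. The other products are not shown. Capitals mark the seed, bases 2 to 8.

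miR-17-5p, 48.5 kb from Gpc5, chr14:115043684-115043706, plus strand: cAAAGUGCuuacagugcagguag
miR-20a-5p, 48.0 kb from Gpc5, chr14:115044183-115044205, plus strand: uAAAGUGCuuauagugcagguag
miR-106a-5p, 129 kb from Gpc3, chrX:52742541-52742563, minus strand: cAAAGUGCuaacagugcagguag
miR-20b-5p, 128 kb from Gpc3, chrX:52742159-52742181, minus strand: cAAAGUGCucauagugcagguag

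These libraries do not measure mature microRNAs. The host transcript of the cluster beside Gpc5, Mir17hg, had 263, 842, 523 and 40 reads in wild-type and 347, 180, 410 and 472 reads in ΔAgo2 libraries. The groups overlapped, with a log2 fold change of 0.13 ± 0.58, and -0.21 without wild-type replicate 4 (adjusted p = 0.964, edgeR's quasi-likelihood test). The cluster's host was thus read in the same cells in which Gpc5 next to it had at most 1 read per library. Kis2, a transcript annotated beside the cluster near Gpc3, had 0 reads in every library and is named after its values were seen.

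The genes whose pattern over the 8 libraries was most like that of Gpc4 were found by Pearson correlation of log2 CPM. They were Wasf3 (r = 0.988), Ikzf1 (0.986), Gm53 (0.985), Cyfip2 (0.978) and Gm12663 (0.977). The 8 points share the split between genotypes, so these values are a description. Wasf3 had 98, 50, 146 and 43 reads in wild-type and 1, 0, 0 and 0 in ΔAgo2 libraries. Cyfip2 had 40, 23, 87 and 16 reads in wild-type and 0, 1, 0 and 0 in ΔAgo2 libraries. Ikzf1 had 20, 49, 33 and 9 reads in wild-type and 0 in every ΔAgo2 library. In each of these the wild-type level was low and the ΔAgo2 libraries held at most 1 read, while Gm12663 kept 2 to 6 reads in ΔAgo2 libraries.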

How the data were processed

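RNA-seq of cultured LLC cells comprised 4 wild-type and 4 ΔAgo2 libraries, grouped by their labels. The authors aligned paired reads (STAR and mm10 are named in the submitters' processing notes) and ran featureCounts. The deposited counts are raw whole reads per gene. The deposited TPM, made by the authors, scale these counts to gene length and library total. The annotation release and strand setting are not given in the sources used here, so overlapping antisense genes may share reads.

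Genes were filtered with filterByExpr (14228 left), scaled with TMM and tested with edgeR 4.0.16 (R 4.3.3), quasi-likelihood, two-sided, Benjamini-Hochberg over all tested genes, threshold 0.05. CPM use the TMM-scaled totals. Each SE is the log2 fold change over the root of the F statistic. Genes were matched to GENCODE vM21 (GRCm38), and 93 identifiers had no match. A library's GC correction used median offsets in 20 bins of GC content. Folds against libraries at 0 use 3 counts per library. The test was run on simulated counts with known changes. Alternatives were DESeq2 1.42.0, limma 3.58.1 (voom, and log2(TPM + 1) or log2(TPM + 0.1)), other scalings, filters, GC correction and left-out libraries.

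The members and lists were chosen with earlier results of these data known. Named are all members, from each list the 3 genes with the highest mean TPM, the 2 with the largest fold change and any called, called or nearest neighbours, and the 5 genes most like Gpc4. Some genes of these lists are counted but not reported here by name. Marker lists gave summed TPM, in wild-type and ΔAgo2 libraries respectively, of 246 to 1673 and 730 to 1133 (epithelial), 0 to 0.05 and 0 (lung epithelial), 3162 to 4236 and 4050 to 5016 (mesenchymal), 20.6 to 142 and 15.3 to 30.9 (fibroblast), 18.3 to 101 and 15.2 to 46.1 (leukocyte), and 0.04 to 0.35 and 0.17 to 0.77 (endothelial), with 0 markers called.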

Additional observations from a re-analysis of the deposited data

Results flagged for a closer look

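In 5 of 91 groups of 4 libraries examined for the members and the other named genes, 1 library lay far from the others, where chance alone would give about 1 in 20. The value is the gap to the nearest library divided by the whole range of the group, on the log2 CPM scale. For Gpc1 in wild-type it was 0.971, with wild-type replicate 4 at 922 CPM and the others at 272 to 282 CPM. For Gpc4 in wild-type it was 0.865, with wild-type replicate 3 at 2.24 CPM (151 reads) and the others at 1.24 to 1.35 CPM. For the sulfate donor transporter Slc35b2 it was 0.858, with wild-type replicate 4 at 287 CPM and the others at 43.3 to 56.7 CPM. For Ugdh it was 0.851, with wild-type replicate 4 lowest at 61.7 CPM and the others at 123 to 139 CPM. For Fgf7 it was 0.830, with wild-type replicate 4 lowest at 8.97 CPM and the others at 36.0 to 47.9 CPM. In 4 of the 5 the library was wild-type replicate 4, and the part of its GC content in these values was not tested.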

How the results depend on the processing

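Depth limits Gpc4 to at most 3 counts per ΔAgo2 library, and wild-type replicate 4 limits what can be said of Gpc1, Sdc1, Sdc2 and Sdc4. The order of the members by TPM was the same with CPM per kilobase of exon and without wild-type replicate 4. Of all tested genes, 42 were called, and 6 with a CPM of at least 1 as filter, 15 on log2(TPM + 1), 67 with the GC correction, 120 with the GC correction without wild-type replicate 4 (chosen after seeing the data), 143 without a low-count filter, 257 by limma-voom with sample weights and 399 by DESeq2. The number of genes that DESeq2 tested is not given, so its counts below stand without a share of all genes. With edgeR, leaving out 1 library gave 1 (without ΔAgo2 replicate 1) to 113 (without wild-type replicate 4). Of the members, 1 was called (Gpc4), and 0 with the CPM filter, which removes Gpc4, with the range over left-out libraries from 0 (without ΔAgo2 replicate 1) to 1. Of the heparan sulfate machinery 0 were called, 4 by DESeq2, 2 without a low-count filter, and 0 to 1 over left-out libraries, the 1 being Hs3st3b1 without wild-type replicate 2. Of the other proteoglycans and partners 0 were called, 3 by DESeq2, 2 (Agrn and Tgfbr3) by limma-voom with sample weights, and 1 (Tiam1) without a low-count filter. Of genes near the members 1 was called, 3 (Crocc2, Fam20c and Sned1) by DESeq2, 2 (BC037034 and Sned1) by limma-voom with sample weights, 1 within 1 Mb, and 0 to 1 over left-out libraries, with 0 where ΔAgo2 replicate 1, 2, 3 or 4 was left out.

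The replicate numbers do not show a pairing of the libraries. Deviations of same-numbered libraries correlated at -0.138, -0.0491, 0.384 and 0.0278, and 1 of the 4 numbers correlated best with its own. With the replicate number as a block, 18 of all tested genes and 0 members were called, and Gpc1 and Sdc1 were at -0.58 and -0.38 on the log2 scale.

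None of the genes whose log2 fold change turned direction had passed the threshold, and the cause was not tested. It turned positive with the GC correction for Hs6st1 (0.025), Naglu (0.228), Gusb (0.229) and Hspg2 (0.272), and with the replicate block added for Hs6st1 (0.085), Naglu (0.304), Gusb (0.268) and Hspg2 (0.330). With the GC correction without wild-type replicate 4 it did so for Slc35b2 (0.081), Naglu (0.153), Gusb (0.354) and Hspg2 (0.130). On log2(TPM + 0.1) it did so for Ext2 (0.008), Naglu (0.178), Gusb (0.310) and Hspg2 (0.215), and on log2(TPM + 1) for Ext2 (0.008), Naglu (0.176), Gusb (0.304) and Hspg2 (0.214). With library size only it did so for Gusb (0.135) and Hspg2 (0.087), by limma-voom for Gusb (0.113) and Hspg2 (0.004), with the replicate block for Gusb (0.107) and Hspg2 (0.006), and without a low-count filter for Gusb (0.021). By limma-voom with sample weights it was 0.295 for Gusb, 0.306 for Hspg2, 0.011 for Fgfr1, 0.415 for Fgfr3 and -0.099 for Mmp14. Over left-out libraries it ran from -0.148 to 0.395 for Ndst1, -0.160 to 0.380 for Papss1, -1.216 to 0.139 for Slc35b2, -0.510 to 0.198 for Naglu, -0.234 to 0.384 for Gusb, -0.256 to 0.227 for Hspg2, -0.941 to 0.031 for Gipc1, -0.631 to 0.021 for Fgfr1 and -0.140 to 0.223 for Tpm3-rs7.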
